A study of Homo sapiens with 4 samples.

Results

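The genes described here are 10 targets of the hypoxia response that do not encode glycolytic enzymes: VEGFA, CA9, CA12, ADM, NDRG1, BNIP3, ANKRD37, P4HA1, P4HA2 and DDIT4. They were found by symbol among the 60666 rows of the deposited table, and each symbol had a single row. RNA was sequenced from HGC27, a line of human gastric cancer cells. The cells were kept for 24 h in DMEM without glucose, with 10% FBS and antibiotics. That medium was used alone (no glucose, n = 2) or with 25 mM exogenous lactate (lactate, n = 2). No sample with glucose or under low oxygen was analysed here, so the comparison asks which transcripts differ with lactate in cells that all lack glucose. Nothing in the labels tells whether duplicates came from separate cultures, and the p-values therefore rest on a spread between samples that may be technical.

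Cells sense oxygen through the HIF transcription factors. In oxygen, the prolyl hydroxylases encoded by the EGLN genes mark the HIF alpha subunits for destruction by the VHL ubiquitin ligase. When oxygen is low, HIF alpha pairs with ARNT and binds short DNA motifs with the core ACGTG or GCGTG. The targets fall into enzymes of glycolysis and a second set with other roles: growth of blood vessels (VEGFA, ADM), control of pH (CA9, CA12), collagen maturation (P4HA1, P4HA2), mitophagy (BNIP3) and restraint of growth signalling (DDIT4). Several of them, DDIT4 and VEGFA among them, also respond to other stresses.

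Values are TPM, a share of transcripts scaled for gene length, so levels can be compared between genes, but depth is unknown and no interval for counting error can be given. The columns summed to between 995439 and 996089 TPM, and between 23272 and 25764 rows were above 0. On the log2(TPM + 1) scale, the rows averaging 1 TPM or more correlated at 0.97 between the libraries of each condition and at 0.95 to 0.96 across conditions. Of 5 epithelial markers only KRT8 and CDH1 reached a mean of 1 TPM, and the 5 summed to 3.77 and 4.51 TPM without and 8.77 and 10.63 TPM with lactate. KRT8, a keratin, rose (log2 fold change 1.24, adjusted p = 0.0328 in limma), also under median-ratio scaling (1.17, adjusted p = 0.0410), while CDH1, which encodes E-cadherin, did not pass (0.61, adjusted p = 0.371). Of 7 gastric mucosa markers 6 were listed at 0 in every library, so the defining genes of that tissue were largely absent, and MUC6, a gastric mucin, had a log2 fold change of -0.47 (adjusted p = 0.561). The 10 markers of other cell types summed to 80.6 and 94.4 TPM without and 142.4 and 170.1 TPM with lactate. Most of that sum was ACTA2, a smooth muscle actin, which rose from 80.6 ± 11.6 to 149.0 ± 19.3 TPM (SD, n = 2). Its log2 fold change was 0.88 (adjusted p = 0.0410 in limma), and 0.78 under median-ratio scaling, where the call was lost (adjusted p = 0.0655). DES, a muscle intermediate filament, had a log2 fold change of 1.05 (adjusted p = 0.0545) and the pericyte marker RGS5 of -0.61 (adjusted p = 0.251), and neither passed. CD3E and HBB were listed at 0 in all libraries, 7 of the 10 markers lay below a mean of 1 TPM, and the part of these markers in the results was not tested. In bulk RNA, fewer cells of a type and less RNA per cell cannot be told apart.

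The starts of these genes differ in the HIF core motifs they hold. Promoter sequence from RefSeq (GRCh38.p14, which shares the coordinates of hg38, the build in the submitters' processing notes) was found for 8 of the 10 genes, all but VEGFA and NDRG1. The 250 bases before the RefSeq start were searched on both strands for ACGTG and GCGTG, which appear in the printed strand as CACGT and as CACGC when the match is on the other strand. The motif ACGTG lay before 5 of 8 genes, against 18.5% of 35116 promoters, GCGTG before 4 of 8, against 32.2%, and either before 7 of 8, against 43.2%. Where the letters read CACGTG, the same bases match ACGTG on both strands and count on each. The windows below are shown because each holds 1 or more of these matches, in capitals, before a gene whose levels are given next, while P4HA2 is shown over the same span as its paralog P4HA1 and holds neither motif. The DDIT4 window leaves out its GCGTG matches, which begin at positions -219 and -53.
CA9, chr9:35673868-35673927, + strand, 60 to 1 bases before the start: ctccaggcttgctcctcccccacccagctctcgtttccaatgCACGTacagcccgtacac
CA12, chr15:63382057-63382096, - strand, 250 to 211 bases before the start: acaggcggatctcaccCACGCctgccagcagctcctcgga
ADM, chr11:10304953-10304992, + strand, 120 to 81 bases before the start: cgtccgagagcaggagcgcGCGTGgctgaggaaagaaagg
BNIP3, chr10:131982014-131982073, - strand, 150 to 91 bases before the start: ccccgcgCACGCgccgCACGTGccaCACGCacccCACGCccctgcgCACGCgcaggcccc
ANKRD37, chr4:185396666-185396715, + strand, 175 to 126 bases before the start: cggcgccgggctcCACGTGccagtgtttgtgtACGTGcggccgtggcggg
P4HA1, chr10:73096927-73096976, - strand, 110 to 61 bases before the start: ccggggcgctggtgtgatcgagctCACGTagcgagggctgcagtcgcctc
P4HA2, chr5:132227152-132227201, - strand, 110 to 61 bases before the start: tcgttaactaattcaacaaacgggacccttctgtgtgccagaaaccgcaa
DDIT4, chr10:72273784-72273823, + strand, 140 to 101 bases before the start: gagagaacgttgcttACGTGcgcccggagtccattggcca
A match is a run of letters and not a measured binding site, and the absence of a match concerns only this window. Apart from those of BNIP3 and DDIT4, the windows lie inside or across the edge of the wider gene spans given below, which come from another annotation with other starts.

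**Figure D1:**
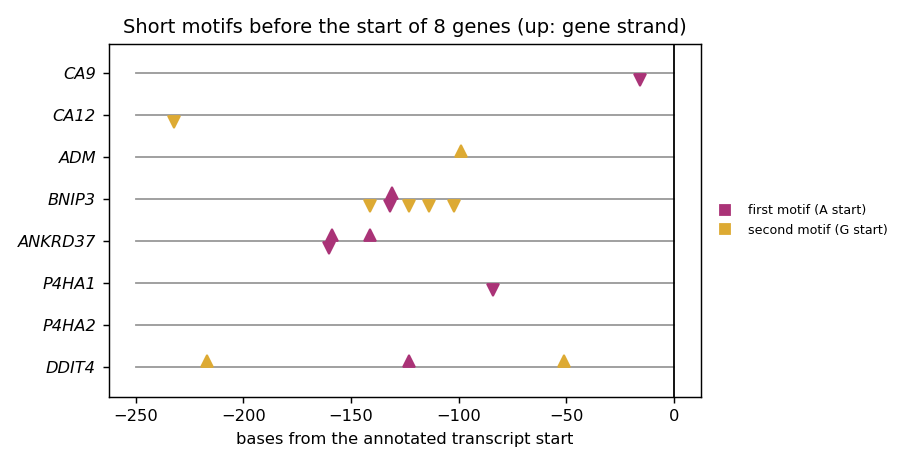
Positions of ACGTG (purple) and GCGTG (yellow) in the 250 bases before the RefSeq start of 8 genes, in bases from the start; triangles pointing up are on the gene's strand and those pointing down on the other. BNIP3 holds 6 matches, which begin between positions -143 and -104, and ANKRD37 holds 3. DDIT4 holds 1 ACGTG and 2 GCGTG, CA9 has its only match at position -18, and P4HA2 has none.

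Levels spanned more than 3 orders of magnitude. Averaged over the 4 libraries, DDIT4 was at 407.8 TPM, above 98.2% of the 15051 rows that averaged 1 TPM or more, followed by VEGFA at 111.5 TPM and P4HA1 at 53.7 TPM. ADM (23.2 TPM), P4HA2 (18.1 TPM), NDRG1 (14.1 TPM) and CA12 (13.8 TPM) formed a middle group whose order differed between libraries. Without lactate ADM was the highest and NDRG1 the lowest of them in both libraries. With lactate P4HA2 lay above ADM in both. NDRG1 was the lowest of them in the first lactate library (11.24 TPM) and the highest in the second (35.17 TPM). ANKRD37 was at 2.86 TPM, while BNIP3 and CA9 were at 0.310 and 0.250 TPM, below the level of 1 TPM used as a filter. BNIP3, with the most motif matches of the 8 genes searched, had the second lowest level of the 10.

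**Figure D2:**
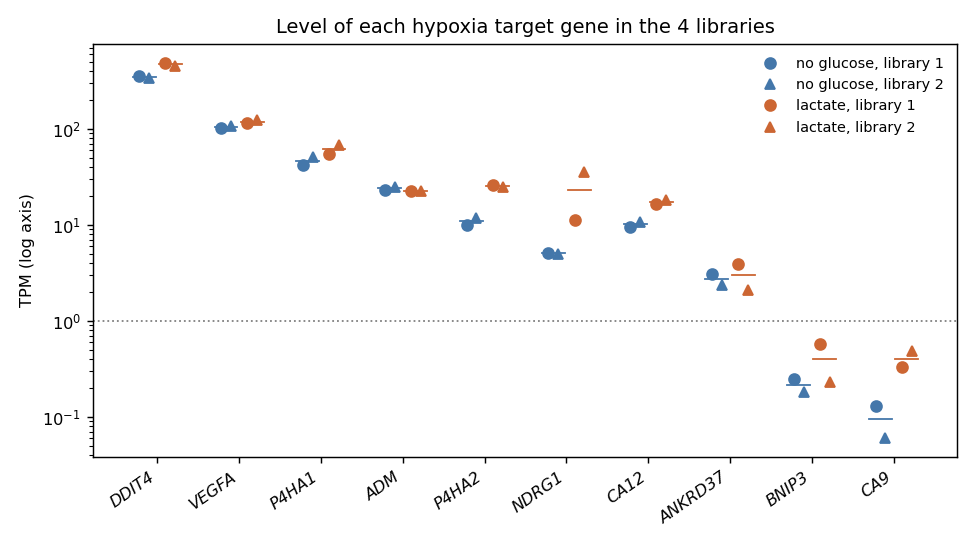
TPM of each gene (log axis) in each of the 4 libraries, ordered by mean; circles are library 1 and triangles library 2 of a condition, short lines are group means, and the dotted line is the filter at 1 TPM. P4HA2, CA12, DDIT4, P4HA1, VEGFA, NDRG1 and CA9 have both lactate values above both no-glucose values, and the lactate values of NDRG1 stand far apart at 11.2 and 35.2 TPM.

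P4HA2 and CA12 rose with lactate, and the other 6 tested genes did not pass the threshold. Tests were run with limma on log2(TPM + 1) over all 15051 of these rows, and a change was called at a Benjamini-Hochberg adjusted p under 0.05. Of the 8 genes tested, 2 rose, none fell and 6 did not pass; over all tested rows 4.69% rose and 1.90% fell, 6.59% in either direction. Under median-ratio scaling of the libraries, 50.5% of calls were rises against 71.2% unscaled. The median log2 fold change of the 8 genes was 0.41, beside 0.083 over all tested rows. Under median-ratio scaling these medians were 0.31 and -0.0041. Both lactate libraries lay above both no-glucose libraries for 6 of the 8 genes, beside 37.0% of all tested rows, and below for ADM alone, beside 21.3%. The groups were thus apart for 7 of the 8, beside 58.4% of all tested rows. With 2 libraries against 2, an exact two-sided permutation test of a single gene cannot give a p below 0.333. The 10 genes summed to 550.1 and 552.9 TPM without and 738.1 and 741.4 TPM with lactate, and DDIT4 made up the largest part of every sum.

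**Figure D3:**
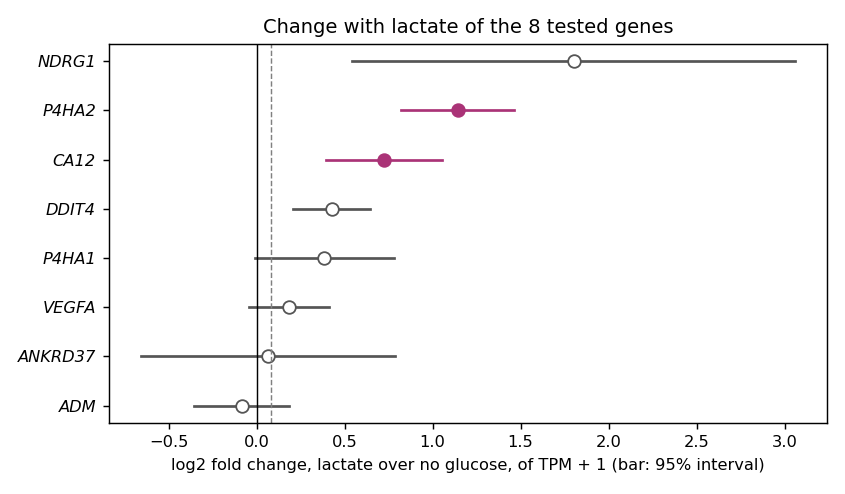
Log2 fold change of TPM + 1, lactate over no glucose, for the 8 tested genes; bars are 95% intervals from limma, filled purple points are called, and the dashed line is the median of all tested rows, 0.083. P4HA2 (1.14) and CA12 (0.72) are called, NDRG1 has the highest value (1.80) with the widest interval, and the intervals of P4HA1, VEGFA, ANKRD37 and ADM include 0.

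P4HA1 and P4HA2 encode the alternative catalytic subunits of collagen prolyl 4-hydroxylase, the enzyme that stabilises the collagen triple helix. P4HA2 (NCBI gene 8974, chromosome 5, 132191838 to 132295315) was listed at 10.02 and 11.87 TPM without and at 25.78 and 24.78 TPM with lactate. The groups did not overlap, and the lactate libraries lay within 1 TPM of each other. The log2 fold change was 1.14 ± 0.13 (SE, adjusted p = 0.0302), a ratio of means of 2.31. P4HA1 (NCBI gene 5033, chromosome 10, 73007217 to 73096974) was listed at 41.64 and 51.37 TPM without and at 54.81 and 67.10 TPM with lactate. Both lactate values were the higher, but the nearest values of the groups were closer together than the libraries within either group. Its log2 fold change was 0.38 ± 0.16 (95% interval -0.011 to 0.78, adjusted p = 0.186). P4HA1 exceeded P4HA2 by 4.16 and 4.33 times without lactate and by 2.13 and 2.71 times with it, so the ratio of the paralogs was lower in both lactate libraries.

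The P4HA2 call ended when any library was left out (log2 fold change 1.03 to 1.25), as did nearly all calls over all rows. It also ended when rows of any level were tested (adjusted p = 0.108), a fit in which no row was called. P4HA2 overlaps PDLIM4, a protein-coding gene on the opposite strand, and whether counting used strand is not given in the sources used here. PDLIM4 had 31.80 and 25.66 TPM without lactate against 41.75 and 44.43 TPM in its presence (adjusted p = 0.0673), and its part in the P4HA2 value was not tested. Of 11 tested genes that act beside them in collagen hydroxylation, none passed in limma, where 6.59% of all tested rows were called. Of the 11, 1 had an unadjusted p under 0.05, beside 4249 of all 15051 rows. The nearest were P3H1, a collagen prolyl 3-hydroxylase (log2 fold change 0.47, adjusted p = 0.0957), and the lysyl hydroxylase PLOD2 (0.38, adjusted p = 0.289), and the median of the 11 was 0.026, or -0.073 under median-ratio scaling. The shared beta subunit P4HB averaged 390.6 TPM in the no-glucose and 398.1 TPM in the lactate libraries. The third alpha subunit gene, P4HA3, lay between 0 and 0.3 TPM.

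CA9 and CA12 encode membrane carbonic anhydrases whose active site faces outward, where they hydrate carbon dioxide and help cells to export acid. CA12 (NCBI gene 771, chromosome 15, 63321378 to 63382161) was listed at 9.46 and 10.82 TPM without and at 16.46 and 18.30 TPM with lactate. The groups were well separated, with a gap of over 5 TPM between them against under 2 TPM within either. The log2 fold change was 0.72 ± 0.13 (adjusted p = 0.0449). The call for CA12 was lost once libraries were scaled by their median ratio (0.63, adjusted p = 0.0509). It was also lost when rows of any level were tested (adjusted p = 0.127), where no row was called. Leaving out any library ended it too (0.64 to 0.81), as it did nearly all calls over all rows. CA9 (NCBI gene 768, chromosome 9, 35673856 to 35681159), which has a match to the HIF motif just before its start, was low, at 0.13 and 0.06 TPM without and at 0.33 and 0.48 TPM with lactate. The lactate values were the higher in both libraries, but CA9 lay below the filter, and in the fit without a filter it did not pass (log2 fold change 0.36, adjusted p = 0.216). CA9 overlaps ARHGEF39 on the opposite strand, which was listed at 8.76 and 10.05 TPM without and 15.42 and 12.95 TPM with lactate. Its part in the CA9 values was not tested.

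Among the other 13 carbonic anhydrase genes and 5 acid and bicarbonate transporters, 11 were tested and 1 rose. It was SLC4A7, a sodium bicarbonate cotransporter, at 20.6 ± 0.134 TPM without and 31.0 ± 1.75 TPM with lactate (0.57 on the log2 scale, adjusted p = 0.0467), a call that median-ratio scaling ended (adjusted p = 0.0601). CA14, a membrane enzyme like CA12, went from 19.2 ± 0.226 to 27.5 ± 1.96 TPM (0.50, adjusted p = 0.0606), and the cytosolic enzyme CA2 from 30.5 ± 2.24 to 38.1 ± 1.58 TPM (0.31, adjusted p = 0.139). CA2 and CA14 were the carbonic anhydrases at the highest levels, and both were above CA12 in every library. CA11, CA13, CA8 and CA5B lay between 0.92 and 16.63 TPM in the single libraries, with log2 fold changes between -0.041 and 0.44. CA1, CA3, CA4, CA5A, CA6, CA7 and CA10 were below the filter. The median of the 11 tested genes was 0.31, or 0.22 under median-ratio scaling.

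DDIT4, also called REDD1, restrains the growth kinase complex mTORC1 and is induced by many stresses. It (NCBI gene 54541, chromosome 10, 72273920 to 72276036) was listed at 355.68 and 339.42 TPM without and at 487.77 and 448.32 TPM with lactate. The gap between the groups was larger than the difference between libraries of either group. The log2 fold change of 0.43 ± 0.09 just missed the threshold (95% interval 0.21 to 0.65, adjusted p = 0.0524). DDIT4 passed among protein-coding genes only (adjusted p = 0.0239) and with a filter at a mean of 5 TPM (adjusted p = 0.0388). Over the same 15051 rows it passed with a replicate block (adjusted p = 0.0457) and with a pseudocount of 0.1 (adjusted p = 0.0476). Without a filter it missed (adjusted p = 0.138). Under median-ratio scaling the log2 fold change was 0.33 (adjusted p = 0.120). Of 10 genes that control mTORC1, all tested, 1 rose, 1 fell and 8 did not pass, with a median of 0.21, or 0.11 under median-ratio scaling. DDIT4L, the paralog of DDIT4, rose, with means of 7.09 ± 1.49 and 15.1 ± 1.07 TPM and a log2 fold change of 1.00 (adjusted p = 0.0410). AKT1S1, a subunit that inhibits mTORC1, fell from 33.9 ± 0.127 to 20.8 ± 1.27 TPM (-0.68, adjusted p = 0.0376). SESN3, a sestrin, was at 7.24 ± 0.856 and 13.3 ± 2.79 TPM (0.79, adjusted p = 0.0650) and the mTOR inhibitor DEPTOR had a log2 fold change of 0.28 (adjusted p = 0.146).

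NDRG1 encodes a cytoplasmic protein linked to differentiation and stress, and in these data it was set apart by the spread between its lactate libraries. NDRG1 (NCBI gene 10397, chromosome 8) had 5.12 and 4.96 TPM in the no-glucose libraries, and 11.24 TPM in the first and 35.17 TPM in the second lactate library. Both lactate values were above both no-glucose values, but they differed from each other by 3.13 times, while the no-glucose libraries nearly coincided. On the log2(TPM + 1) scale the difference between the lactate libraries was 1.56, larger than in 98.3% of tested rows. The log2 fold change was 1.80 ± 0.50 (95% interval 0.54 to 3.06, adjusted p = 0.0912). It was 1.02 without the second lactate library and 2.58 without the first. NDRG1 passed among protein-coding genes only (adjusted p = 0.0306), where 2063 of 12166 rows were called. None of the 3 paralogs passed the test: NDRG2, NDRG3 and NDRG4 had log2 fold changes of 0.14, -0.028 and -0.30 (adjusted p = 0.527, 0.884 and 0.513).

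**Figure D4:**
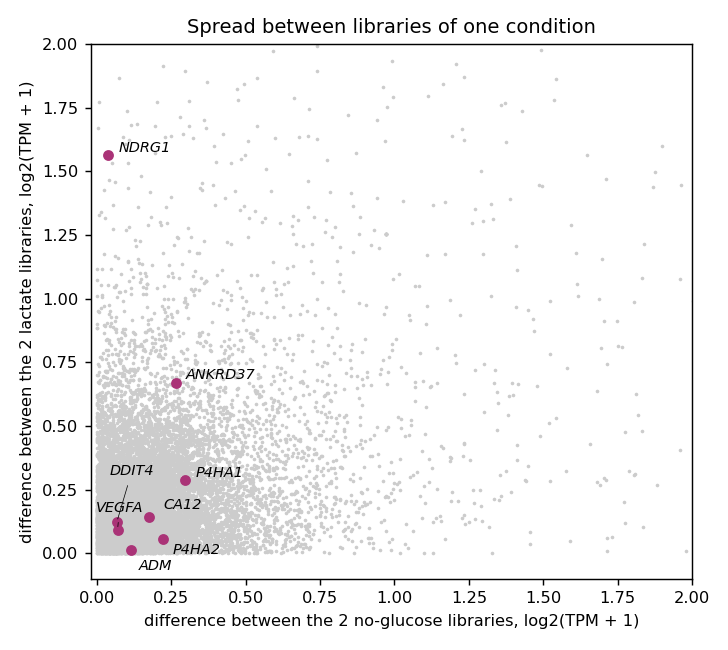
Difference between the libraries of one condition on the log2(TPM + 1) scale, no glucose on the x axis and lactate on the y axis, for tested rows (gray) and for 8 genes (purple); 302 of the 15051 rows lie beyond the axes, which end at 2. NDRG1 sits near the left edge at 1.56 on the y axis, ANKRD37 is at 0.67, and the other 6 genes lie under 0.3 on both axes.

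BNIP3 and its paralog BNIP3L encode proteins of the outer mitochondrial membrane that tether mitochondria to autophagosomes, and they were expressed very unequally. BNIP3 (NCBI gene 664, chromosome 10, 131966455 to 131982013) was listed at 0.25 and 0.18 TPM without and at 0.58 and 0.23 TPM with lactate. The groups overlapped, and no test was made at this level other than in the fit without a filter (log2 fold change 0.20, adjusted p = 0.587). The table also holds 39 rows for BNIP3 pseudogenes, of which 31 were at 0 in all libraries and 1, BNIP3P11, had a mean of at least 1 TPM, at 1.82 and 2.24 TPM without and 1.91 and 1.59 TPM with lactate. Reads shared between such copies can be split, so the value of BNIP3 is uncertain. BNIP3L was at 12.88 and 12.99 TPM without and at 19.26 and 21.24 TPM with lactate, above every BNIP3 value and every pseudogene value in each library, and it rose (log2 fold change 0.61 ± 0.11, adjusted p = 0.0471). Median-ratio scaling ended that call (0.51, adjusted p = 0.0588). Among the 9 tested genes of the NDRG family and the mitophagy receptors and regulators, BNIP3L was the 1 that passed, and their median was 0.14, or 0.048 under median-ratio scaling. The mitophagy kinase PINK1 went from 5.69 ± 1.41 to 11.2 ± 1.79 TPM (0.87, adjusted p = 0.0670), and BCL2L13 had a log2 fold change of 0.46 (adjusted p = 0.0779).

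VEGFA, the main growth factor for blood vessels, and ADM, which encodes the vasodilator peptide adrenomedullin, moved little. VEGFA (NCBI gene 7422, chromosome 6, 43770184 to 43786487) was listed at 101.81 and 106.92 TPM without and at 114.84 and 122.34 TPM with lactate. The groups were separate but close, a rise of 13.6% in the mean, and the log2 fold change was 0.18 ± 0.09 (95% interval -0.046 to 0.41, adjusted p = 0.254), or 0.084 under median-ratio scaling. An antisense gene, AL136131.3, overlaps VEGFA and was listed at 60.41, 24.45, 37.34 and 96.81 TPM, the first pair without lactate. Without strand, its reads and those of VEGFA cannot be told apart. ADM (NCBI gene 133, chromosome 11, 10304680 to 10307397) was listed at 22.94 and 24.95 TPM without and at 22.40 and 22.59 TPM with lactate. Its log2 fold change was -0.085 ± 0.11 (95% interval -0.35 to 0.18, adjusted p = 0.641), so a change of ADM by 1 on the log2 scale in either direction lies outside the interval. Under median-ratio scaling it was -0.18 (adjusted p = 0.294).

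Of 14 genes of the VEGF and adrenomedullin ligands and receptors, 5 were tested and NRP2, a neuropilin coreceptor, rose, with means of 5.28 ± 0.573 and 9.31 ± 0.148 TPM and a log2 fold change of 0.72 (adjusted p = 0.0496), a call lost under median-ratio scaling (adjusted p = 0.0623). The median of the 5 was 0.15, or 0.058 under that scaling. VEGFB was at 54.39 and 43.62 TPM without and 44.34 and 46.00 TPM with lactate (-0.11, adjusted p = 0.641). ADM2, a paralog of ADM, was at 7.83 and 5.78 TPM without and 7.18 and 7.95 TPM in the presence of lactate (0.15, adjusted p = 0.635). VEGFC lay between 0.03 and 0.11 TPM and PGF between 0.19 and 0.65 TPM. CALCRL, the receptor that binds adrenomedullin when paired with a RAMP protein, had means of 2.36 and 3.31 TPM in the no-glucose and lactate libraries (0.36, adjusted p = 0.275), while RAMP1, RAMP2 and RAMP3 were listed at 0 in all libraries, as was the VEGF receptor KDR.

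ANKRD37 encodes a small ankyrin repeat protein. It (NCBI gene 353322, chromosome 4, 185396021 to 185400628) was listed at 3.07 and 2.38 TPM without and at 3.90 and 2.08 TPM with lactate. Both no-glucose values lay between the lactate values, and the log2 fold change was 0.067 ± 0.28 (95% interval -0.65 to 0.79, adjusted p = 0.904), with a direction that turned under median-ratio scaling (-0.0042). UFSP2, which overlaps it on the opposite strand, was at 22.24 to 32.50 TPM in the 4 libraries.

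The HIF factors and their regulators did not pass the test. None of 12 tested genes passed in limma, where 6.59% of all tested rows were called. Of the 12, 3 had an unadjusted p under 0.05, beside 4249 of all 15051 rows. The median of the 12, 0.047, became -0.049 under median-ratio scaling. HIF1A was at 44.97 and 49.76 TPM without and at 48.00 and 54.41 TPM with lactate, and the groups overlapped (log2 fold change 0.11, 95% interval -0.18 to 0.40, adjusted p = 0.573). EPAS1, which encodes HIF-2 alpha, lay between 0.46 and 0.93 TPM. ARNT was at 24.36 and 19.81 TPM without and at 32.83 and 35.48 TPM with lactate, and its log2 fold change of 0.61 ± 0.14 missed the threshold (adjusted p = 0.0608), though ARNT passed among protein-coding genes only (adjusted p = 0.0256). RBX1, a part of the VHL ubiquitin ligase, had a log2 fold change of -0.28 (adjusted p = 0.131). The oxygen sensor EGLN3, itself a hypoxia target, was at 15.43 and 15.21 TPM without and at 15.41 and 15.69 TPM with lactate. RNA levels do not measure the stability of HIF proteins.

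A wider list of 45 hypoxia targets outside glycolysis moved unevenly too. Of 39 tested, 4 rose, 1 fell and 34 did not pass, beside 4.69% rises and 1.90% falls over all tested rows. The median of the 39 was 0.32, or 0.24 under median-ratio scaling, beside 0.083 and -0.0041 over all tested rows. LOXL2, a lysyl oxidase that crosslinks collagen, rose, with means of 23.7 ± 1.06 and 45.8 ± 1.53 TPM and a log2 fold change of 0.92 ± 0.10 (adjusted p = 0.0301). MXI1, a repressor that opposes MYC, rose from 13.2 ± 0.792 to 24.1 ± 3.17 TPM (0.82 ± 0.14, adjusted p = 0.0410). BNIP3L and the heme oxygenase gene HMOX1 were the other rises, HMOX1 by 0.54 (adjusted p = 0.0482, named after its values were seen; adjusted p = 0.0716 under median-ratio scaling). STC1, which encodes the hormone stanniocalcin, fell from 6.36 ± 0.651 to 2.54 ± 0.255 TPM (-1.06 ± 0.17, adjusted p = 0.0391). LOX (0.53, adjusted p = 0.0549) and the histone demethylase KDM3A (0.50, adjusted p = 0.0573) were the nearest to the threshold of those that missed it.

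The 20 glycolytic hypoxia targets had a median of -0.084, with 4 rises, 2 falls and 14 that did not pass. Under median-ratio scaling the median was -0.18, with 2 rises and 2 falls. ENO2 and SLC2A3 rose, by 1.06 and 1.08 on the log2 scale (adjusted p = 0.0253 and 0.0295), and ALDOC and HK1, named after their values were seen, were the other rises, both lost under median-ratio scaling (adjusted p = 0.0643 and 0.0625). HK2 and LDHA fell, by 0.72 and 0.69 (adjusted p = 0.0337 and 0.0401). ENO1 (-0.37, adjusted p = 0.0528) and PFKP (0.36, adjusted p = 0.0705) missed the threshold. Every call named here among the other lists was lost when any library was left out, as were nearly all calls over all rows. These counts and medians describe the lists, and no test compared one list with another. For each list, the shares over all tested rows were 4.69% rises and 1.90% falls, with a median of 0.083. Some genes, BNIP3L, PLOD1, PLOD2, EGLN1 and EGLN3 among them, belong to more than 1 list and count in each.

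**Figure D5:**
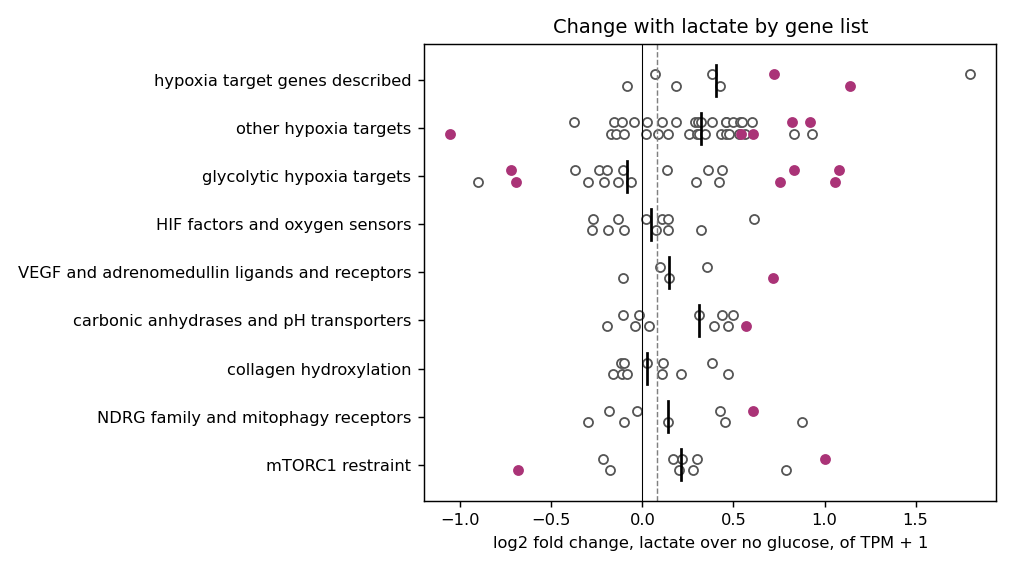
Log2 fold change of TPM + 1, lactate over no glucose, of each tested gene (circles; filled purple where called) in the 10-gene set and 8 other lists; thick bars are list medians and the dashed line is the median of all tested rows, 0.083. The medians are 0.41 for the 8 tested genes of the set, 0.32 for the other hypoxia targets, -0.084 for the glycolytic ones and 0.047 for the HIF factors and oxygen sensors, and every list has genes on both sides of 0.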

How the data were processed

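RNA from 4 samples of HGC27 cells, 2 per condition, was sequenced by the authors, who deposited a table of TPM values for 60666 rows. The submitters' processing notes name RSEM 1.3.3 and hg38. The aligner, annotation and strand setting (each not given in the sources used here) could change the values of overlapping genes. Depth is unknown, since TPM keeps none, so only the spread between libraries was used as error. No column of another sample was present (0).

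Values were transformed as log2(TPM + 1). Rows averaging 1 TPM or more were kept, 15051 in all, and lactate was compared with no glucose with limma 3.58.1 (R 4.3.3; trended prior, group as the only term, two-sided, Benjamini-Hochberg adjustment over all kept rows). Errors are SE from the fit or SD of 2 libraries, and intervals are 95% intervals from limma. The script was tested on simulated data whose independent noise came from the fitted prior, so shared shifts or pairing between libraries were not tested. Deviations of replicate 1 from its group mean correlated at 0.035 between conditions over tested rows. This value cannot decide whether the replicate numbers pair the samples.

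The 10 genes and the 11 other lists were chosen with earlier results of these data known. From each list, up to 4 called genes and 2 uncalled genes with the smallest adjusted p were named, with paralogs of the 10 genes and the HIF subunits by value. Gene positions are from GENCODE 29 (GRCh38) and promoters from RefSeq. Alternatives were protein-coding genes only, median-ratio scaling, a filter at 5 TPM or none, a pseudocount of 0.1, an adjusted p under 0.01, the replicate number as a block, and fits without each library in turn.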

Additional observations from a re-analysis of the deposited data

How the results depend on the processing

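Of the 10 genes, 2 were called, and 3 with a replicate block, with a pseudocount of 0.1 or with a filter at 5 TPM, DDIT4 being the third each time. Under median-ratio scaling 1 was called (P4HA2). With protein-coding genes only 4 were called (P4HA2, CA12, DDIT4 and NDRG1), beside 2063 of all 12166 rows in that fit. Without a filter or at an adjusted p under 0.01 there were 0 limma calls (5 and 4 genes at an unadjusted p under 0.05). Leaving out a library gave 0 calls each time, from 0 to 0, with 3 to 5 genes at an unadjusted p under 0.05. That fit has 1 residual degree of freedom and assumes that the lone sample varies like the other group.

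Over all 15051 rows 992 were called, 1207 with the replicate block (822 up, 385 down) and 1204 with a pseudocount of 0.1. A filter at 5 TPM gave 1370 calls among 10741 rows, and median-ratio scaling 771 among 15037. With protein-coding genes only there were 2063 calls among 12166 rows. At an adjusted p under 0.01 limma called 1 row, and without a filter 0, where 5072 rows had an unadjusted p under 0.05. Leaving out a library gave from 0 to 8, and the fits with 0 calls had 2377 to 3537 rows at an unadjusted p under 0.05. The other lists together had 17 called genes, 33 with protein-coding genes only, 10 under median-ratio scaling, and 0 limma calls without a filter, at an adjusted p under 0.01 and in every fit with a library left out, from 0 to 0 (51, 50, and 27 to 44 genes at an unadjusted p under 0.05).

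The direction of ANKRD37 turned under median-ratio scaling (-0.0042) and without the second no-glucose library or the first lactate library (-0.067 and -0.27); leaving out a library gave between -0.27 and 0.40. The other 7 tested genes kept their direction in all 11 alternatives. Median-ratio scaling moved the median of all tested rows from 0.083 to -0.0041. The replicate block, though it is not known whether the numbers pair the samples, turned no direction and among the 10 genes added the DDIT4 call (adjusted p = 0.0457). With the block P4HA1 had an adjusted p of 0.0589, against 0.186 in the main fit. Rows at an unadjusted p under 0.05 went from 4249 to 4960. Among the other lists, where it gave 19 calls, the block ended the NRP2 call (adjusted p = 0.0558) and added SESN3, LOX and ENO1 (adjusted p = 0.0457, 0.0492 and 0.0490). The cause of these shifts was not tested.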
